A study of Homo sapiens with 6 samples.

Results

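CHCHD10 and C19orf70 (now named MICOS13) are nuclear genes for small mitochondrial proteins, and each carried 1 listed 5-methylcytosine (m5C) site in mRNA of HEK293T cells. Every row that named either gene was taken from the deposited site lists, which gave 2 of 542 sites, 2 of 501 genes and 11 of 1222 listings. The genes were chosen by their levels along the gradient, the lower levels in polysome libraries than in the free library, so those levels are a description and carry no test. HEK293T is a human embryonic kidney cell line, and all cells were labelled wildtype. Lysate made with cycloheximide, a drug that holds ribosomes on mRNA, was run on a 10% to 50% sucrose gradient, and tubes were pooled into 6 fractions. From the top of the gradient these held free RNA, RNA bound by a small subunit, RNA bound by a large subunit, RNA with 1 ribosome (monosomes), RNA with 2 to 5 (light polysomes) and RNA with more (heavy polysomes). Polyadenylated RNA of each fraction was treated with bisulfite, which turns unmethylated cytosine into a base read as T and leaves m5C read as C. The level is the share of reads with C at a site, and its coverage counts the reads with either base.

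There was 1 library per fraction and no replicate, so every interval and test below covers counting error only and compares libraries rather than conditions. Reads at listed sites summed to 764521 for free RNA and declined to 50416 for heavy polysomes, over 172 to 233 sites a library. Median coverage per listed site was 68 to 75 reads. A list holds only sites that were called, with a level of at least 10% and at least 20 reads.

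Cristae are the folds of the inner mitochondrial membrane in which the respiratory chain sits, and the mitochondrial contact site and cristae organising system (MICOS) shapes the narrow junctions at their base. The C19orf70 product is a small inner-membrane subunit of MICOS that bridges its sub-complexes. The CHCHD10 product is a soluble protein of the intermembrane space with paired cysteine motifs (twin CX9C), is found near MICOS and partners CHCHD2. CHCHD10 mutations are known in motor neuron disease and frontotemporal dementia. In mRNA, m5C is made mainly by NSUN2 at Type I sites, which precede G-rich bases, and by NSUN6 at Type II sites, which precede UCCA.

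The windows of 21 nt around the sites are shown because they place the sites in different classes. They were read from GRCh37 on the minus strand, in DNA letters and 5′ to 3′, with the methylated C and the following 4 bases in capitals. The CHCHD10 window is chr22:24110045-24110065 and the C19orf70 window is chr19:5678594-5678614.
CHCHD10: caccatgcctCGGGGaagccg
C19orf70: cccgcgagtaCTCCAaggagg
The C19orf70 site was Type II, 1 of 189 sites followed by UCCA that could be placed in a transcript. The CHCHD10 site had the G-rich context of Type I. The 339 placed sites without UCCA had mixed contexts, and 25 of them, CHCHD10 included, were followed by GGGG.

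The sites lay at opposite ends of their coding sequences (CDS). The CHCHD10 site (ENSG00000250479), at position 24110055 of chromosome 22, was nucleotide 7 of a CDS of 426 nt, the first base of codon 3 (CGG), in exon 1 of 4. The start codon therefore falls inside the printed window, and no CDS site of the 260 placed lay closer to its start codon. The 5′ UTR before it was 98 nt long. The C19orf70 site (ENSG00000174917), at position 5678604 of chromosome 19, was nucleotide 315 of a CDS of 354 nt, the third base of codon 105 (TAC), in the last of 4 exons. It had 39 nt of CDS after it, which ranked 11 of 260 by closeness to the end. The median CDS site stood at nucleotide 567, with 715 nt still to come. Of the annotated transcripts, 4 of 5 held the CHCHD10 site in CDS, whereas 2 of 6 held the C19orf70 site in CDS and 3 of 6 held it in an exon.

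**Figure D1:**
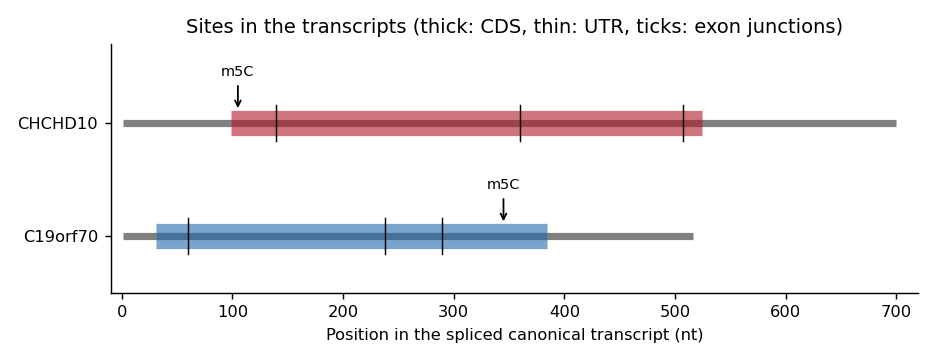
Spliced canonical transcripts of CHCHD10 and C19orf70 from GENCODE, with the position in nt on the x axis, CDS as thick bars, UTRs as thin bars and exon junctions as ticks. Arrows mark the m5C sites, at nucleotide 105 of 700 in CHCHD10, just after the CDS begins, and at nucleotide 345 of 516 in C19orf70, near the end of the CDS.

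Both 21-nt windows matched the genome once. After every C was turned into T, as bisulfite does, the CHCHD10 window had 1 other match and the C19orf70 window had 0, and with 51 nt neither had another match. RPL36, a gene for a ribosomal protein, spans the C19orf70 site on the opposite strand without an annotated exon there, and the libraries were made and mapped with strand information.

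At CHCHD10 the level was near 50% in every listed library up to the monosomes and near the listing floor in heavy polysomes. Free RNA gave 47.6% (45.2% to 50.1% by the 95% Wilson interval, from 1629 reads) and small subunit RNA 55.2% (50.6% to 59.7%, 462 reads). Large subunit RNA gave 51.1% (43.9% to 58.2%, 186 reads) and monosomes gave 54.5% (48.2% to 60.6%, 246 reads). The heavy polysome library gave 11.6% (8.13% to 16.2%, 242 reads), far below the other 4 and with an interval that reached under the 10% floor. The light polysome list did not hold the site. Among sites of a library, CHCHD10 ranked 24 of 172 by level in the free library and 11 of 177 in the monosome library, against 203 of 225 in the heavy polysome library.

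At C19orf70 the levels formed 2 groups that did not overlap in their intervals, the 4 lighter libraries and the 2 polysome libraries. Free RNA gave 22.2% (20.5% to 24.1%, 2097 reads), small subunit RNA 26.6% (23.2% to 30.3%, 587 reads) and large subunit RNA 27.5% (22.7% to 32.9%, 291 reads). The monosome library gave 27.6% (24.3% to 31.1%, 653 reads). The light polysome library then gave 14.4% (13.0% to 15.9%, 2148 reads) and the heavy polysome library 14.1% (12.2% to 16.3%, 1103 reads). The step thus lay between 1 ribosome and 2 to 5 ribosomes, and the polysome libraries differed from each other by 0.242 percentage points (95% Newcombe interval -2.36 to 2.72). The same step could not be placed for CHCHD10, for lack of a light polysome value.

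**Figure D2:**
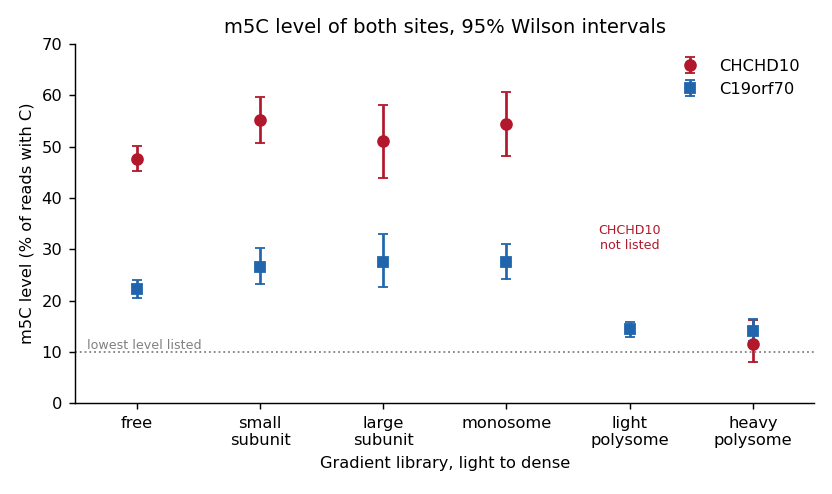
Level of m5C (% of reads with C) on the y axis against the 6 libraries from light to dense, for CHCHD10 (circles) and C19orf70 (squares), with 95% Wilson intervals and the lowest listed level dotted at 10%. CHCHD10 lies between 47.6% and 55.2% in 4 libraries and at 11.6% in heavy polysomes, and C19orf70 lies between 22.2% and 27.6% in the lighter libraries and at 14.4% and 14.1% in polysomes.

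At both genes the free library had the lowest level of the 4 lighter libraries. At CHCHD10 the order from the top was small subunit, monosome, large subunit, free and heavy polysome. Free minus large subunit was -3.44 points there (-10.9 to 4.10, an interval that holds 0), and free minus small subunit was -7.56 points (-12.6 to -2.39). At C19orf70 the order was monosome, large subunit, small subunit, free, light polysome and heavy polysome. Free was below small subunit (-4.35 points, -8.45 to -0.481) and above light polysome (7.84 points, 5.52 to 10.2). These differences are given without a test because they use libraries by which the genes were chosen, and they share the free library. Their intervals are not adjusted for the number of comparisons and are not read as tests.

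The libraries of both subunits and of monosomes gave contrasts that the choice of the genes did not use, and there each site was tested with all others in the 3 pairs, which share libraries. On the C and T reads, Fisher's exact test adjusted over all sites of a pair by Benjamini-Hochberg called neither gene in any pair, 0 of 2 each time. The background of called sites was 2.65% of 113 sites for small against large subunit, 4.5% of 111 for small subunit against monosome and 4% of 125 for large subunit against monosome. All 6 adjusted p-values were 1, and the lowest unadjusted p, by Fisher's exact test, was 0.384. The intervals of the differences show the sizes that these depths leave possible. For CHCHD10, the difference was 4.12 points for small minus large subunit (-4.31 to 12.5), 0.723 for small subunit minus monosome (-6.90 to 8.40) and -3.40 for large subunit minus monosome (-12.8 to 6.05). For C19orf70, these were -0.916 (-7.30 to 5.16), -0.989 (-5.91 to 3.97) and -0.0737 (-6.05 to 6.25).

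Each level rests on counts of C and T reads. CHCHD10 had 776 C and 853 T reads in the free library, 255 and 207 in the small subunit library, and 95 and 91 in the large subunit library. It had 134 C and 112 T reads in the monosome library but 28 C and 214 T reads in the heavy polysome library, at nearly equal coverage (246 and 242 reads). C19orf70 had 466 C and 1631 T reads in the free library, 156 and 431 in the small subunit library, 80 and 211 in the large subunit library and 180 and 473 in the monosome library. Its polysome libraries held 309 C and 1839 T reads (light) and 156 C and 947 T reads (heavy). Since coverage was not scaled for library size, less RNA of a gene and fewer reads of a library cannot be told apart from these counts alone.

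**Figure D3:**
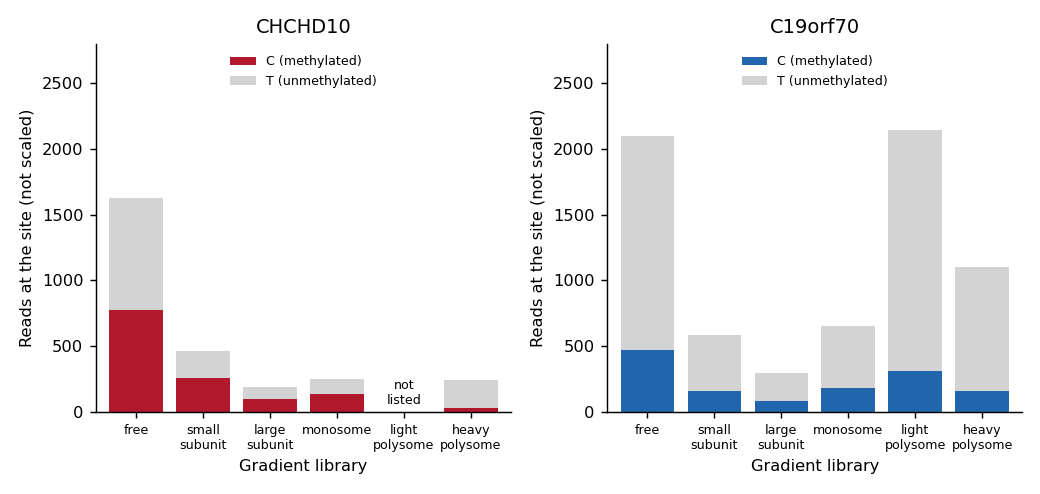
Reads at the CHCHD10 site (left) and the C19orf70 site (right) on the y axis for each library, split into C reads (coloured) and T reads (grey), not scaled for library size. CHCHD10 falls from 1629 reads in the free library to between 186 and 462 elsewhere with 28 C reads in heavy polysomes, whereas C19orf70 keeps 2148 reads in light and 1103 in heavy polysomes.

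Set against each other inside a library, where depth cancels, CHCHD10 had fewer reads per C19orf70 read toward the dense end of the gradient. There were 0.777 CHCHD10 reads per C19orf70 read in the free library (95% interval from the Wilson interval of the share, 0.728 to 0.829). Small subunit RNA gave a ratio of 0.787 (0.697 to 0.889), large subunit RNA 0.639 (0.532 to 0.768), monosomes 0.377 (0.325 to 0.436) and heavy polysomes 0.219 (0.191 to 0.252). The intervals of the monosome and heavy polysome libraries overlapped neither each other nor those of the lighter libraries. Against the median coverage of the 31 sites listed in all 6 libraries, CHCHD10 stood at 0.639 times in the large subunit library. It stood at 0.788 times in monosomes and 0.697 times in heavy polysomes, while C19orf70 went from 1.00 to 2.09 and 3.18 times. From the large subunit library on, the lower ratio thus went with higher relative coverage of C19orf70. The ratio compares single libraries and carries no test between fractions. Library depth cancels in it, but position along the transcript does not. The CHCHD10 site had 595 nt of transcript after it and the C19orf70 site 171 nt. Whether coverage along transcripts differed between libraries was not tested.

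Methylated and unmethylated reads did not follow the same course. CHCHD10 C reads per C19orf70 C read numbered 1.67 in the free (1.48 to 1.87), 1.63 in the small subunit (1.34 to 1.99) and 1.19 in the large subunit library (0.883 to 1.60). From the monosome to the heavy polysome library, the C ratio went from 0.744 (0.596 to 0.931) to 0.179 (0.120 to 0.268). For T reads, free RNA gave 0.523 (0.481 to 0.568), small subunit RNA 0.480 (0.407 to 0.567) and large subunit RNA 0.431 (0.338 to 0.551). Monosomes and heavy polysomes then gave 0.237 (0.193 to 0.291) and 0.226 (0.195 to 0.262). Between the last 2 libraries the T ratio therefore held within its intervals and the C ratio did not. The C ratio includes the lower level of C19orf70 itself in heavy polysomes, and it is not independent of the levels above.

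**Figure D4:**
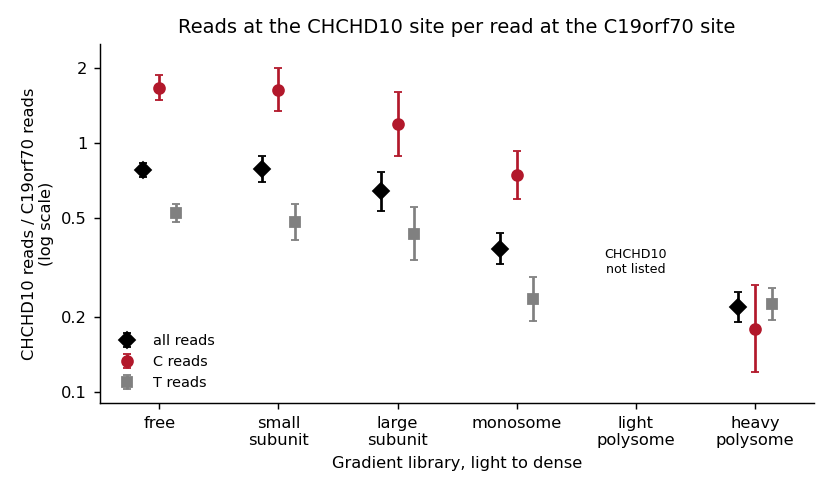
Reads at the CHCHD10 site divided by reads at the C19orf70 site in the same library, on a log scale, for all reads (diamonds), C reads (circles) and T reads (squares), with 95% intervals. The ratio of all reads goes from 0.777 in the free to 0.219 in the heavy polysome library, and the C ratio goes from 1.67 to 0.179.

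Coverage also bears on the light polysome library, where CHCHD10 was absent. With 2148 reads at C19orf70 there, the ratios of the monosome and heavy polysome libraries would correspond to 809 and 471 reads at CHCHD10, against the minimum of 20. This arithmetic assumes that the ratio of the neighbouring libraries held. Whether the site missed the list for its level, its coverage or another filter was not tested.

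By differences in percentage points, CHCHD10 stood at the edge of all sites and C19orf70 within the spread. Free minus heavy polysome was 36.1 points at CHCHD10 (30.8 to 40.3), rank 1 of 51 shared sites, and 8.08 points at C19orf70 (5.30 to 10.7), rank 11. The median of the 51 sites was 2.42 points, and 15.7% of them were called by Fisher's exact test (13.7% higher in free), shares from which nothing is read here because the genes were selected on this contrast. After CHCHD10 came MAPK3 with 22.1 points on 20 free reads. The level in heavy polysomes was 0.243 times that in the free library at CHCHD10 (0.171 to 0.345) and 0.636 times at C19orf70 (0.539 to 0.751).

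With the other lighter libraries in place of the free one, CHCHD10 kept rank 1 among the shared sites, under the same limit from the listing floor. Its level exceeded that in heavy polysomes by 43.6 points from the small subunit library (37.1 to 49.3, 85 sites), by 39.5 from the large subunit library (31.0 to 47.4, 112 sites) and by 42.9 from the monosome library (35.1 to 49.9, 90 sites). C19orf70 ranked 15 of 85, 21 of 112 and 13 of 90, with 12.4, 13.3 and 13.4 points. The medians of all sites in these pairs were 2.28, 2.76 and 1.87 points, and 20% of the 90 sites were called between monosomes and heavy polysomes. The 4 comparisons share the heavy polysome library and are not independent.

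**Figure D5:**
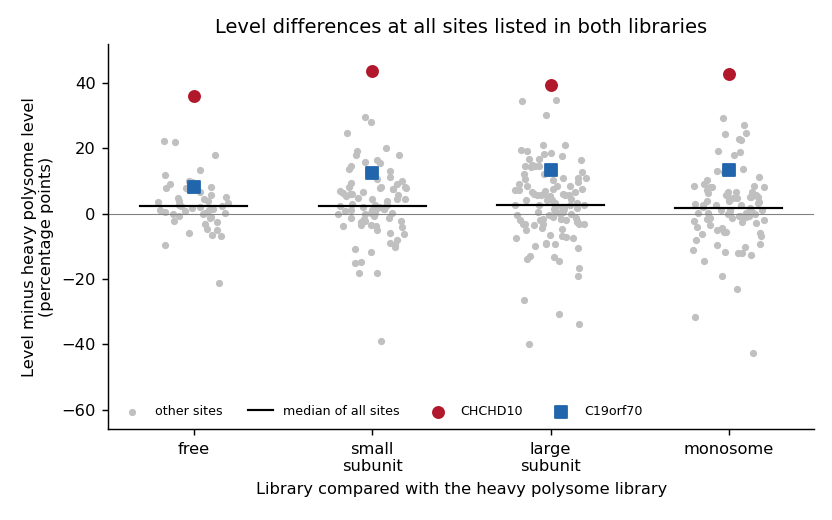
Level in the free, small subunit, large subunit or monosome library minus the level in the heavy polysome library (percentage points, y axis) at every site listed in both, with CHCHD10 (circles), C19orf70 (squares), other sites in grey and the median of all sites as a line. CHCHD10 is the highest point in all 4 columns, at 36.1 to 43.6 points, and C19orf70 lies at 8.08 to 13.4 points.

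Compared with the other sites listed in both libraries, coverage at both genes was high in the free library relative to heavy polysomes. Free over heavy polysome reads came to 6.73 at CHCHD10, rank 7 of 51, and 1.90 at C19orf70, rank 12, against a median of 0.874. Relative to the median coverage of the 31 sites listed in all 6 libraries, C19orf70 had 11.0 times as many reads for free RNA, 1.61 and 1.00 times for small and large subunit RNA, 2.09 times in monosomes, 5.56 times in light and 3.18 times in heavy polysomes. Its relative coverage was thus lowest for large subunit RNA and higher again in polysomes. CHCHD10 had 8.53 times that median for free RNA, 1.27 and 0.639 times for small and large subunit RNA, 0.788 times in monosomes and 0.697 times in heavy polysomes.

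Dividing a level by the mean of its site over the libraries puts sites of unlike level on one scale. In heavy polysomes CHCHD10 stood at 0.263 of its mean over 5 libraries. The lowest of the 32 other sites listed in those libraries stood at 0.599, and that site was C19orf70, the other chosen gene. C19orf70 stood at 0.652 in light and 0.641 in heavy polysomes over 6 libraries, and the lowest of its 30 comparison sites were 0.681 and 0.699. A site must reach the listing floor to enter, which limits how low such values can go. Both genes were chosen for lower levels in polysomes, so their likeness to each other by these levels follows in part from the choice and is a description. By the root mean square difference of these relative levels, the site most like CHCHD10 was C19orf70 itself (0.176 over 5 libraries), then SLC25A6 (0.223), an ADP/ATP carrier of the inner membrane, and TMEM219 (0.232), against a median of 0.333. The sites most like C19orf70 over 6 libraries were TMEM219 (0.131), SLC25A6 (0.158) and the pseudogene RPSAP15 (0.164), against a median of 0.242. After C-to-T conversion, windows of 51 nt at the SLC25A6 and TMEM219 sites had 0 other matches in the genome, whereas those at the 2 RPSAP15 sites had 3 and 13, so reads at RPSAP15 are uncertain in origin.

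Sites of like sequence or position gave few matches for CHCHD10. Of the 24 other sites followed by GGGG, 0 were shared by the free and heavy polysome lists. In the monosome and heavy polysome libraries 3 were shared, with differences of -4.00 to 29.3 points. The highest was at PIGQ, with 52.4% in monosomes and 23.1% in heavy polysomes. PIGQ was at 16.7% in large subunit RNA and 21.7% in light polysomes. GRB2, the signalling adaptor and the other GGGG site in 5 libraries, was at 36.0% in monosomes and 29.2% in heavy polysomes. Within 30 nt of a start codon, on either side, lay 18 sites, 10 of them in CDS. CHCHD10 had the highest level of these in each library that listed it except heavy polysomes. Next to it, SUDS3, also followed by GGGG (14.5% to 22.7% in 4 libraries, 18.5% in heavy polysomes), and MARCKSL1 (12.6% to 17.6% in 6 libraries) were the CDS sites with most listings. For C19orf70, the 15 other Type II CDS sites in the free and heavy polysome libraries had a median difference of 4.64 points, from -9.59 to 22.1, and 12 were higher in the free library. The medians were smaller with the other lighter libraries in place of free. They were 2.52 points for small subunit (15 of 24 higher there), 0.695 for large subunit (17 of 30) and 0.318 for monosomes (14 of 23).

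Of 26 genes of MICOS and cristae structure, the 2 described here were the listed ones. The other 24, among them IMMT, CHCHD3, CHCHD6, APOO, OPA1 and CHCHD2, had 0 listings, which says nothing of their methylation below the filters. Of 20 twin CX9C genes, CHCHD10 and NDUFB7, a complex I subunit, were listed. Among genes of the respiratory chain, carriers, mitochondrial ribosome and import machinery, found by symbol prefix, 13 were listed with 15 sites, 5 of them shared by the free and heavy polysome lists. All 5 were higher in the free library, as were 37 of all 51 shared sites, with a median of 4.98 points against 2.42 over all. The lists were chosen with earlier results of these data known, so the counts and p-values here are a description. Fisher's exact test called 2 of the 5, against 15.7% of all. SLC25A6 differed by 11.9 points (10.2 to 13.6, adjusted p = 1.08e-36) and NDUFB7 by 4.98 (2.29 to 7.68, adjusted p = 0.00239, both Fisher's exact test). SLC25A39, TIMM50 and an ATP5SL site did not pass, with 3.51, 3.84 and 22.0 points, the last on 28 free reads. The 36.1 points of CHCHD10 exceeded all 5, and the 8.08 points of C19orf70 lay above 3 of them and below SLC25A6 and ATP5SL.

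RNA structure predicted from the sequence alone depended on the window at both sites. In a spliced window of 61 nt, the partition function gave the CHCHD10 site a pairing probability of 0.401, against a median of 0.686 for the 332 folded sites without UCCA, whatever their context. The C19orf70 site had 0.958, against a median of 0.0497 for 185 Type II sites, and 96.2% of those were lower. In a window of 41 nt the order turned round, with 0.964 at CHCHD10 and 0.0187 at C19orf70. A longer window kept the order of the 61-nt window, with 0.332 and 0.832. No state is assigned. GC content of the 61-nt window was 82.0% at CHCHD10, rank 17 of 517 sites from the highest, and 67.2% at C19orf70, against a median of 60.7%.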

How the data were processed

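Polyadenylated RNA of 6 gradient fractions of HEK293T cells was profiled by bisulfite sequencing, 1 library each, grouped by the sample labels. Per the methods and processing notes, the authors trimmed reads (Cutadapt 1.13, Trimmomatic 0.36) and mapped them to converted GRCh37 with HISAT2 2.10, then to the converted transcriptome with Bowtie2 2.2.9. The deposited coverage is a count of C and T reads, not scaled. The deposited level is a fraction, C reads over C and T reads. The P-value deposited by the authors, a test of each site against the conversion rate of its gene, was not used. Whether counts precede the filter that drops reads rich in unconverted cytosine is not given in the sources used here. If they follow it, that filter can lower levels. Sites under 10% or 20 reads are not listed, so absence is not zero.

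C reads were level times coverage, whole at all 1222 listings within 1e-06. Levels carry Wilson and differences Newcombe 95% intervals. The 95% intervals of ratios of levels are normal approximations on the log scale, and those of read ratios come from the Wilson interval of the share. Reads have no molecular identifiers, so intervals cover counting error only. Fisher's exact test (two-sided, 15 pairs of libraries) was adjusted by Benjamini-Hochberg over all sites of a pair, threshold 0.05, and was tested on simulated data. Sites were placed in canonical GENCODE 44 transcripts lifted to GRCh37 by Ensembl identifier, and 528 of 542 lay in an exon. Folds used ViennaRNA 2.7.2; other tools were Python 3.11.15, numpy 2.4.6, scipy 1.17.1, pandas 2.3.3, statsmodels 0.14.6 and matplotlib 3.10.9. Members, gene lists and tests were chosen with earlier results of these data known. Named besides the members were listed genes of the lists and the 3 most alike sites. MAPK3, PIGQ, GRB2, SUDS3 and MARCKSL1 were named after their values were seen. The lists hold no expression values, so the cell line label was not checked by markers.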

Additional observations from a re-analysis of the deposited data

How the results depend on the processing

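Of 52 other settings, 41 left their result on the same side of the threshold, within its interval, or within 1.5 times for a count, and no difference in level changed sign. The count of 41 includes settings of the Fisher's exact tests of both genes, whose outcome could not change. Their lowest unadjusted p was 0.384 by that test, so no other adjustment or coverage minimum could have called them. Free minus heavy polysome was 36.1 points at CHCHD10 and moved above its interval with the monosome (42.9) or the small subunit library (43.6) in place of free. At C19orf70 it was 8.08 points and moved to 13.4 with monosome, 12.4 with small subunit and 13.3 with large subunit, as the free level was the lowest of the lighter libraries. Summed free and subunit libraries minus summed polysome libraries gave 37.9 points at CHCHD10 and 9.29 at C19orf70. For CHCHD10 the polysome side was the heavy library alone, and for C19orf70 it was light and heavy. Sites called between monosome and heavy polysome numbered 18, against 9 with Holm adjustment and 9 at a threshold of 0.01, both stricter. Predicted pairing probability changed most in the shorter window at both sites. CHCHD10 went from 0.401 to 0.964 in a window of 41 nt, and C19orf70 from 0.958 to 0.0187 in 41 nt and 0.832 in a longer one; the cause was not tested. With level minus mean as the measure of likeness, 1 of the 3 sites named for CHCHD10 and 2 of the 3 for C19orf70 were kept. Leaving out replicates was not run, and no paired analysis was possible because each fraction had 1 library. By depth, the CHCHD10 level was least precise in the large subunit library (186 reads, 43.9% to 58.2%), and its heavy polysome level rests on 28 C reads.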
